A study of Mus musculus with 10 samples.

Results

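The regions described here are 1314 sites in mouse pre-iPSCs at which FLAG-tagged Nanog had a ChIP-seq peak in both lines that carried it, while Sin3a had a peak in the line without tagged Nanog and none in the line with it. They were found by merging the peaks of 4 deposited lists that shared at least 1 base, which gave 45707 regions, and by keeping those with FLAG peaks from both the Nanog + Sin3a and Nanog lines and a Sin3a peak from the Sin3a line, but without one from the Nanog + Sin3a line. They make up 2.87% of all regions and are called Sin3a-line-only regions below. The choice rests on called peaks: a region without a peak is one where the authors' caller passed no peak, which is not a measurement of absent binding.

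Pre-iPSCs are partly reprogrammed cells, here derived from female neural stem cells of the 129/MF1 strain that carried an Oct4-GFP-IRES-puro reporter, and were grown in serum with LIF. All lines were made by stable transfection with PiggyBac transposon vectors driven by the CAG promoter and by drug selection. The Nanog + Sin3a line carried FLAG-tagged Nanog and Sin3a, the Nanog line carried FLAG-tagged Nanog and an empty vector, and the Sin3a line carried Sin3a and an empty vector. Chromatin was precipitated with a FLAG antibody in the Nanog + Sin3a and Nanog lines, and with a Sin3a antibody in the Nanog + Sin3a and Sin3a lines. Each of these 4 groups had 2 replicates. Each is represented by 1 peak list in which replicates are not shown apart, so replicate spread is unknown for every difference below, and no p-value is given. As in any bulk ChIP, fewer bound cells and less binding per cell cannot be told apart. Whether a line was 1 clone is not stated in the labels. Both lines compared for Sin3a carried the Sin3a transgene, and no antibody used here separates transgenic from endogenous Sin3a.

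Nanog is a homeodomain transcription factor of the pluripotency network that binds enhancers and promoters. Sin3a has no DNA-binding domain of known sequence preference. It is a scaffold that recruits the histone deacetylases Hdac1 and Hdac2 to sites chosen by transcription factors, and its complex is best known as a co-repressor. Sites that both proteins occupy are therefore of interest in reprogramming, where Nanog promotes the passage of pre-iPSCs to the pluripotent state.

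The lists held 18231 Sin3a and 36286 FLAG peaks in the Nanog + Sin3a line, 38485 FLAG peaks in the Nanog line and 17168 Sin3a peaks in the Sin3a line. Total reads are not given in the lists. Relative depth, solved from the deposited fold and p-value as ChIP tags per control tag, was 1.30 and 1.37 for Sin3a and FLAG in the Nanog + Sin3a line, 1.15 for FLAG in the Nanog line and 1.43 for Sin3a in the Sin3a line. Fragments counted at called summits, which mix depth with enrichment, had a median of 38 and 39 for Sin3a and FLAG in the Nanog + Sin3a line, 34 for FLAG in the Nanog line and 46 for Sin3a in the Sin3a line. Intervals are 95% intervals over regions or fragments and cover counting error only. All fold values are the authors' enrichment at the summit over background, and −log10 q is their adjusted significance of that summit. Both belong to 1 list.

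The first question was how the Sin3a-line-only regions stood among all regions with a Sin3a peak in the Sin3a line. Of the 16208 such regions, 2515 had no Sin3a peak in the Nanog + Sin3a line, or 15.5%. This is the contrast that the rule used, so the number is given as background only. The 1314 Sin3a-line-only regions are 52.2% of those 2515. Among regions with FLAG peaks in both lines the share without a counterpart was 10.0% (9.55 to 10.6%, 1314 of 13075). It was 36.2% where FLAG had a peak only in the Nanog + Sin3a line (110 of 304), 26.2% with one in the Nanog line alone (354 of 1350) and 49.8% (47.3 to 52.4%) with no FLAG peak (737 of 1479). The share with FLAG in both lines minus that without FLAG was -39.8 points (-42.4 to -37.2). These shares describe the calls that the rule used, and the Sin3a peaks of the classes differed in strength, with a median −log10 q of 12.8 with FLAG in both lines and 5.30 without FLAG.

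With every called peak counted, the mirror class was larger. Regions with FLAG in both lines and a Sin3a peak in the Nanog + Sin3a line alone numbered 1669, or 12.4% (11.9 to 13.0%) of the 13430 regions with FLAG in both lines and a Sin3a peak in the Nanog + Sin3a line. Over all regions with a Sin3a peak in that line, whatever their FLAG peaks, 19.0% had none in the Sin3a line. The difference between the class shares, 10.0% for Sin3a-line-only regions and 12.4% for the mirror class, was -2.38 points (-3.14 to -1.62). This order depended on how weak peaks were counted. With a −log10 q of at least 5 asked of every peak, a weaker Sin3a peak of the other line counts as none. By that count the shares were 11.3% (1168 regions) for the first rule and 10.8% (1107 regions) for the mirror rule. With at least 10 they were 12.8% (733 regions) and 9.83% (546 regions). With the minimum set only where the first rule requires a peak, 536 regions remained at 5 and 51 at 10. The mirror class was not counted in that way. The same minimum was also applied to lists of unequal depth, so the reversed order does not show that more sites lacked Sin3a. The Nanog + Sin3a line's Sin3a list was also the longer of the pair. With equal numbers of Sin3a peaks, 1566 regions met the first rule, and no count of the mirror class was made at that setting.

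Strength of the Sin3a peak went with the share in every FLAG class. Regions with FLAG in both lines whose Sin3a peak lay in the weakest 20% of the Sin3a line's regions lacked a counterpart at 37.3% (730 of 1955), against 66.0% (488 of 739) of regions without FLAG in the same 20%. In the next 20% the shares were 18.6% with FLAG in both lines and 43.9% without FLAG, and in the middle 20% they were 4.93% and 24.9%. Differences were -28.7 points (-32.6 to -24.6), -25.3 points (-30.3 to -20.4) and -20.0 points (-26.0 to -14.7). In the 20% just below the strongest, the shares were 0.871% and 9.72%, a difference of -8.85 points (-17.9 to -3.90). In the strongest 20%, 1 of 3169 regions with FLAG in both lines lacked a counterpart, and 0 of 19 regions without FLAG did. The Wilson interval of 0 of 19 reaches 16.8%. All of these shares and differences describe the calls that the rule used.

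**Figure D1:**
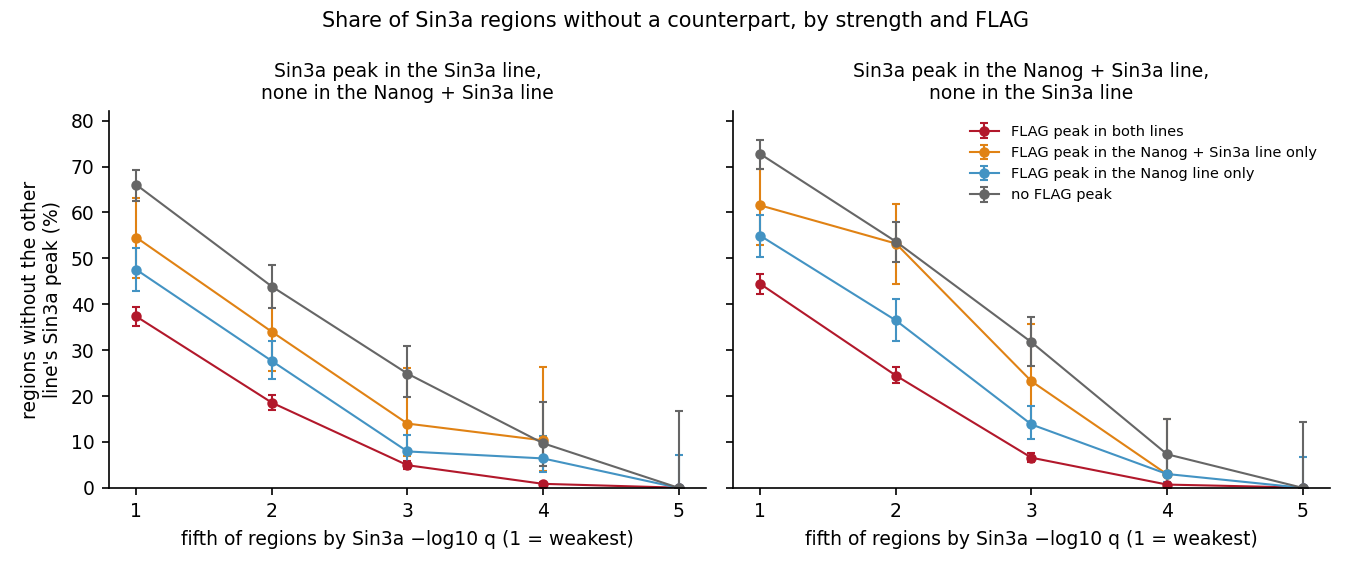
Share of Sin3a regions with no Sin3a peak in the other line (y axis, percent), by 20% steps of Sin3a −log10 q (x axis, 1 the weakest) and by FLAG peaks. The left panel starts from the Sin3a line and the right panel from the Nanog + Sin3a line, bars are 95% Wilson intervals, and points for FLAG in a single line are drawn from 20 regions up. In the weakest step the left panel reads 37.3% with FLAG in both lines and 66.0% without FLAG, and the right panel 44.4% and 72.7%.

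The width of the Sin3a peak moved with both measures. In the weakest 20% the median width was 292 bp with FLAG in both lines and 266 bp without FLAG, and in the middle 20% it was 538 and 365 bp. With the weakest 20% split at its median width of 282 bp, the share without a counterpart was 47.1% with FLAG in both lines and 70.4% without FLAG among the narrower peaks, a difference of -23.3 points (-28.5 to -17.8). Among the wider peaks it was 29.0% and 59.7%, a difference of -30.8 points (-36.8 to -24.5). These values come from the calls of the rule and describe them. In the mirror direction, 44.4% of the weakest 20% with FLAG in both lines and 72.7% without FLAG had no Sin3a peak in the Sin3a line.

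The Sin3a peaks of Sin3a-line-only regions were weak ones. Their median fold was 3.54 (3.44 to 3.54 over regions), against 5.51 in regions of all 4 lists, and their median −log10 q was 4.93, against 14.5. Their summits held a median of 34 fragments, against 54, and their peaks were 285 bp wide, against 629 bp. Of the 1314 peaks, 94.7% lay below the median −log10 q of the Sin3a line's list and 55.2% in its weakest 20%. A −log10 q of 10 or more was reached by 96 of the 1314, 15 or more by 19 and 20 or more by 4. In regions of all 4 lists 7924 of 11761 reached 10. Of the 1669 mirror regions, 78 reached 10 and 10 reached 15 in the Nanog + Sin3a line's Sin3a list. Mirror peaks were about as weak there. Medians were 3.61 for fold, 4.92 for −log10 q and 275 bp for width. Regions of all 4 lists had 5.51, 13.4 and 632 bp in that list. Weak Sin3a peaks were therefore not particular to the Sin3a-line-only regions. The share of regions with FLAG in both lines that lacked a Sin3a counterpart was 43.8% at a −log10 q below 3, 36.2% between 3 and 5, 22.6% between 5 and 7, 10.1% between 7 and 10 and 3.45% between 10 and 15. These values describe the choice, since the rule selected on this list.

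Most of these summits lay above the lowest called summits of the other list and below its median. The scaled pileup of the Sin3a summit, in units of control tags, exceeded the 5th percentile of the pileups called in the Nanog + Sin3a line, 19.3, in 90.7% of the Sin3a-line-only regions (1188 of 1310 with a recovered pileup). It exceeded that list's median of 29.3 in 14.7% of them, against 74.3% of regions of all 4 lists. The 5th percentile of the Sin3a line's own list was 19.6, so being called there already put most summits above 19.3. The 90.7% therefore does not show that these summits could have been called in the other list. A second description was limited to a band of Sin3a strength. Among regions with FLAG in both lines and a Sin3a −log10 q of 3.81 to 6.97 in the Sin3a line, which is the middle 50% of the Sin3a-line-only regions, 677 of 2347 had no Sin3a peak in the Nanog + Sin3a line (28.8%, 27.0 to 30.7%). In the 1670 that kept one, the log2 ratio of Sin3a fold, Nanog + Sin3a line over Sin3a line, had a median of 0.17 and ran from -0.27 at the 5th to 0.65 at the 95th percentile. Those ratios exist only where a peak was called, so low ones are missing from them.

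**Figure D2:**
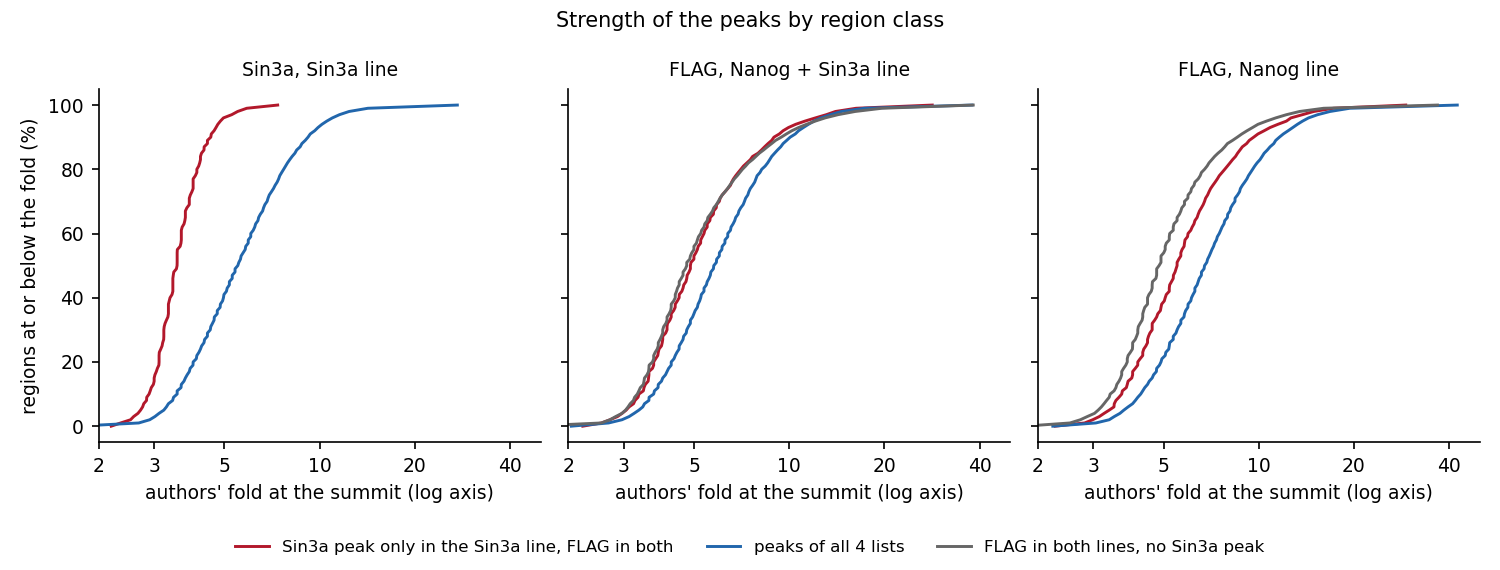
Cumulative share of regions (y axis, percent) by the authors' fold at the summit (x axis, log scale), for 3 lists, from left to right Sin3a of the Sin3a line, then FLAG of the Nanog + Sin3a and of the Nanog line. The axis runs to a fold of 50. Sin3a-line-only regions (red) had a median Sin3a fold of 3.54 against 5.51 in regions of all 4 lists (blue), whereas in the FLAG panels their medians, 4.87 and 5.52, lay between or near those of regions of all 4 lists and of Nanog regions without Sin3a (grey).

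In median fold, the FLAG-Nanog peaks at these regions lay between those of regions of all 4 lists and of Nanog regions without Sin3a. The rule asked for a FLAG peak in both lines and used no further measure of FLAG strength. The median FLAG fold was 4.87 in the Nanog + Sin3a line and 5.52 in the Nanog line. Regions of all 4 lists had 5.77 and 6.74, so the Sin3a-line-only regions had 0.843 (0.831 to 0.865) and 0.819 (0.797 to 0.840) times their medians. Nanog regions without any Sin3a peak (12306 regions) had 4.74 and 4.84, and the ratios to them were 1.03 (1.01 to 1.05) and 1.14 (1.11 to 1.17). Against the mirror class the ratio was 1.00 (0.985 to 1.03) in the Nanog + Sin3a line and 1.02 (0.992 to 1.05) in the Nanog line, intervals that include 1. In the strongest 20% of the FLAG lists lay 20.3% of the Sin3a-line-only regions for the Nanog + Sin3a line and 23.0% for the Nanog line. The lists also hold peaks called in only 1 of the lines, which the rule leaves out, so these ranks partly reflect the choice. Over the 1314 regions the FLAG folds of both lines followed each other with a Spearman rho of 0.76. The Sin3a fold followed them with a rho of 0.09 in the Nanog + Sin3a line and 0.11 in the Nanog line. In regions of all 4 lists the rhos of Sin3a fold were 0.28 and 0.30. Sin3a fold ran from 2.71 to 4.85 between the 5th and 95th percentiles of the 1314, against 3.21 to 10.5 there. With this narrower range, the low rhos do not show that Sin3a level was unrelated to Nanog level. All lists share the control, and these correlations are descriptions.

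It was next asked whether FLAG-Nanog differed between its lines at these regions. Sin3a was not precipitated in the Nanog line, so the ratio does not compare Nanog with and without Sin3a. The log2 ratio of FLAG fold, Nanog + Sin3a line over Nanog line, had a median of -0.15 (-0.18 to -0.13) in Sin3a-line-only regions. It was -0.22 in regions of all 4 lists, -0.13 (-0.15 to -0.11) in the mirror class and -0.03 in Nanog regions without Sin3a, and over all 27050 regions with FLAG in both lines it was -0.14. Ratios are relative to this shared offset between the lists. FLAG fold was at least 1.5 times higher in the Nanog + Sin3a line at 32 Sin3a-line-only regions, or 2.44% (1.73 to 3.42%), against a background of 5.26% of all regions with FLAG in both lines, and at least 1.5 times lower at 123, or 9.36% (7.90 to 11.1%), against 8.28%. The share that rose by this measure was below the background, as it was in regions of all 4 lists (1.17%) and in the mirror class (2.70%), whereas in Nanog regions without Sin3a it was 9.81%. That last class supplied 1207 of the 1422 regions behind the background. The share that fell was near the background.

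**Figure D3:**
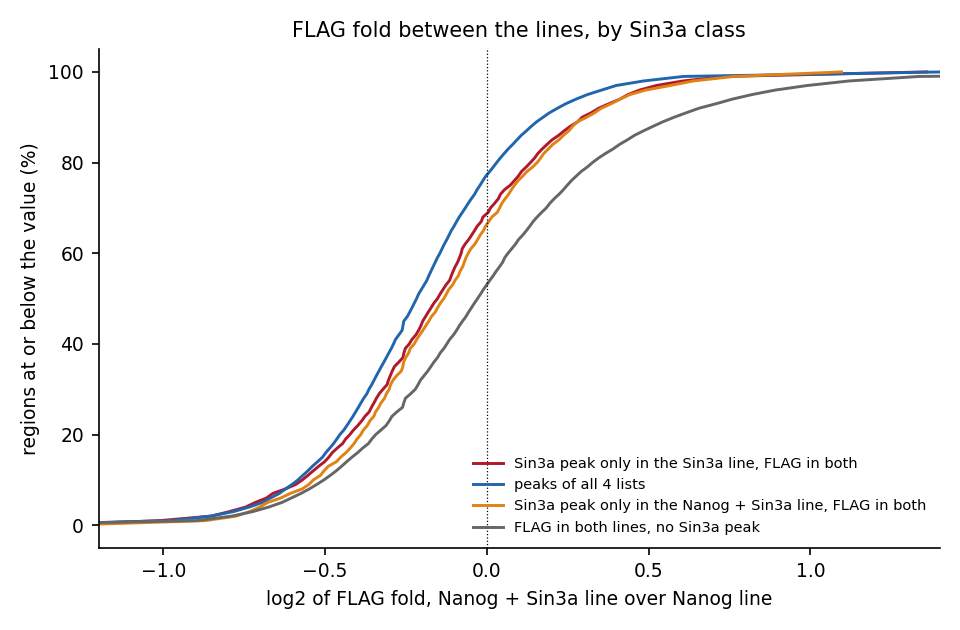
Cumulative share of regions (y axis, percent) by the log2 ratio of FLAG fold, Nanog + Sin3a line over Nanog line (x axis), in 4 classes of regions with FLAG in both lines. The few values beyond the axis are not drawn. The curves of Sin3a-line-only regions (red) and of the mirror class (orange) lie close together, with medians of -0.15 and -0.13, between regions of all 4 lists (blue, -0.22) and Nanog regions without Sin3a (grey, -0.03).

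Within this band of Sin3a strength, the share without a counterpart changed little with the FLAG ratio, and the intervals of its lowest and highest steps overlapped. From the lowest to the highest 20% of regions by FLAG ratio between the lines, it was 26.4, 29.4, 29.0, 29.6 and 29.8%, with an interval of 22.6 to 30.6% for the first and 25.8 to 34.1% for the last. By mean FLAG fold it was 30.9% in the lowest 20% (26.8 to 35.2%) and 26.8% in the highest (23.0 to 31.0%). By width of the Sin3a peak it was 43.2% (38.8 to 47.7%) among the narrowest and 11.7% (9.10 to 14.9%) among the widest 20%. Its −log10 q, which still varied inside the band, gave 38.9% (34.6 to 43.4%) in the lowest and 20.4% (17.0 to 24.3%) in the highest 20%. Inside the band the width of the Sin3a peak showed the widest range of these 4 measures. The band itself was cut on −log10 q, so the measures cannot be ranked by these ranges. Without that cut, the share with FLAG in both lines ran from 43.8% at a −log10 q below 3 to 0.0968% at 20 or more. Width and −log10 q both come from the list that the rule used.

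Several regions stood out by the strength of the Sin3a peak. At chr6:72166601-72166968 (mm9, as are all coordinates) the FLAG fold was 7.79 in the Nanog + Sin3a line and 11.5 in the Nanog line. Sin3a had a fold of 7.37 in the Sin3a line, with 66 fragments over the summit (Poisson interval 51.0 to 84.0) and a −log10 q of 23.6. Its Sin3a summit lay 13 and 8 bp from the FLAG summits of the Nanog + Sin3a and Nanog lines, and the nearest Sin3a peak of the Nanog + Sin3a line was 18.0 kb away. It was the only region with FLAG in both lines in the strongest 20% without a counterpart.

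The next 5 by Sin3a strength differed in how near a Sin3a peak of the other line lay. The region chr10:94453388-94454391 had a Sin3a fold of 5.63 and 79 fragments (62.5 to 98.5), with weak FLAG peaks of fold 2.71 in the Nanog + Sin3a line and 3.05 in the Nanog line, and the Nanog + Sin3a line had a Sin3a peak 432 bp from its edge. The region chr3:51908039-51908994 had a Sin3a fold of 6.93 and lay 1397 bp from such a peak, with FLAG folds of 3.60 in the Nanog + Sin3a line and 5.35 in the Nanog line. At chr1:157887710-157888226 the Sin3a fold was 5.64 and the FLAG folds 6.12 and 5.44, in the same order of lines. At chr1:137114107-137114527 the Sin3a fold was 5.90 and the FLAG folds 3.69 and 5.48, with the nearest Sin3a peak of the Nanog + Sin3a line 40.5 kb away. At chr10:79499604-79500177 the Sin3a fold was 6.60 and the FLAG folds 7.41 and 5.67.

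At the 4 strongest Nanog sites of the class the Sin3a fold ran from 2.74 to 5.29, around the class median of 3.54. The region chr1:186792208-186792971 had FLAG folds of 22.9 in the Nanog + Sin3a line and 25.8 in the Nanog line, with 280 (248 to 315) and 215 (187 to 246) fragments, and a Sin3a fold of 3.59 with 41 fragments (29.4 to 55.6). At chr13:95476572-95477079 the FLAG folds were 28.3 and 29.2 and the Sin3a fold 3.43. At chr3:88375498-88376427 they were 27.9 and 26.0, with a Sin3a fold of 2.74 and summits 213 and 218 bp apart from that of Sin3a. The region chr10:84373414-84374170, with FLAG folds of 23.1 and 22.3, had the strongest Sin3a peak of these 4, at a fold of 5.29. The ratio of FLAG fold, Nanog + Sin3a line over Nanog line, ran from 0.885 to 1.07 over the 4, so FLAG enrichment was close in both lists.

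FLAG differed most between the lines at another set. At chr7:90582667-90583406 the FLAG fold was 22.4 in the Nanog + Sin3a line (175 fragments, 150 to 203) and 8.72 in the Nanog line (56 fragments, 42.3 to 72.7), with a Sin3a fold of 3.76 in the Sin3a line. At chr10:67628034-67629108 the FLAG folds were 11.3 and 5.82, and at chr19:34269673-34270861 they were 14.3 and 7.50. In the other direction, chr3:96239368-96240133 had FLAG folds of 2.22 and 5.77, chr5:139410470-139410916 had 2.35 and 5.70, and chr16:33583852-33584888 had 3.04 and 6.71, each Nanog + Sin3a line first. At each of these 3 the background under the FLAG summit was also higher in the Nanog + Sin3a list. At chr3:96239368-96240133 the FLAG summits held 26 (17.0 to 38.1) and 38 (26.9 to 52.2) fragments, so the counting intervals overlapped although the folds were far apart.

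Sin3a and Nanog summits lay close together in the class. In the 1230 regions with 1 peak of each list, the Sin3a summit was within 100 bp of the FLAG summit of the Nanog + Sin3a line at 68.9% (66.3 to 71.5%) and of that of the Nanog line at 69.5% (66.9 to 72.0%). In the 8514 such regions of all 4 lists both shares were 60.8%. In 1498 such regions of the mirror class, measured from the Sin3a summit of the Nanog + Sin3a line, they were 62.6% and 62.7%. Median distances were 65 and 60 bp in Sin3a-line-only regions, and 74 bp to each in regions of all 4 lists. FLAG summits of the lines lay 40 and 37 bp apart in these classes. The regions were also narrower, at a median of 518 bp against 894 bp, and distances were not matched for width. The Sin3a peak itself shared a base with FLAG peaks of both lines in 1303 of the 1314 regions.

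Sin3a peaks of the Nanog + Sin3a line lay within 5 kb of 34.6% of the regions. The nearest one lay within 200 bp of 62 Sin3a-line-only regions (4.72%), within 1 kb of 214 (16.3%, 14.4 to 18.4%) and within 50 kb of 1010 (76.9%), with a median gap of 13.2 kb. Nanog regions without Sin3a had such a peak within 1 kb at 8.62% (8.14 to 9.13%) and a median gap of 25.6 kb. The mirror class, measured to the Sin3a peaks of the Sin3a line, had one within 1 kb at 18.8% (17.0 to 20.7%). For 150 of the 214, the neighbouring peak belonged to a region of all 4 lists. These are sites beside a Sin3a and Nanog site present in both lines, and the merge by 1 base counts them apart.

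**Figure D4:**
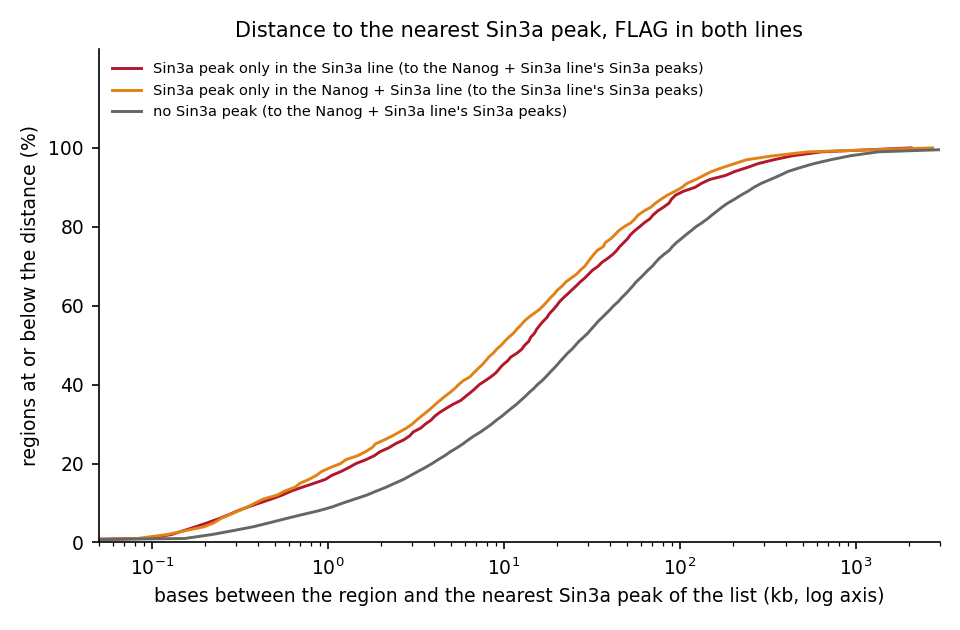
Cumulative share of regions (y axis, percent) by the bases between the region and the nearest Sin3a peak of the list named in the legend (x axis, kb, log scale). At 1 kb the curve of Sin3a-line-only regions (red) reads 16.3%, that of the mirror class (orange) 18.8% and that of Nanog regions without Sin3a (grey) 8.62%.

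The edges of the rule can be seen in single regions. The Sin3a-line-only region chr15:53176187-53176938 lay 2 bases from the nearest Sin3a peak called in the Nanog + Sin3a line, and chr5:65926687-65927284 lay 32 bases from one. Just outside the rule, chr15:77168397-77169420 held Sin3a peaks of the lines that shared 5 bases, with a fold of 2.34 in the Nanog + Sin3a line and 4.01 in the Sin3a line, and chr6:72661061-72662278 held peaks that shared 8 bases, with folds of 2.90 and 4.23. Isolated regions lay at the other end. With a Sin3a −log10 q of at least 10, chr7:114807619-114808397 was farthest, 1269.2 kb from the nearest such peak of the Nanog + Sin3a line, with FLAG folds of 3.60 in that line and 6.74 in the Nanog line and a Sin3a fold of 5.29 in the Sin3a line. Next were chr6:11857278-11858107 at 1161.6 kb and chr8:70454792-70455155 at 862.4 kb.

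The regions were unevenly spread over the chromosomes. As a share of the regions with FLAG in both lines and a Sin3a peak in the Sin3a line, they made up 14.5% (12.1 to 17.3%, 103 regions) on chromosome 10 and 14.4% (12.3 to 16.7%, 138 regions) on chromosome 5, against 6.81% (5.06 to 9.11%, 41 regions) on chromosome 15 and 7.31% (5.83 to 9.14%) on chromosome 7. The share of the mirror class was 8.89% on chromosome 10 and 7.65% on chromosome 5, below its 12.4% over all chromosomes, and 16.5% on chromosome 15, above it. Not every chromosome showed opposite orders. On chromosome 7 the mirror class was also below its overall share, at 11.8%, and on the X chromosome both shares were high, at 14.2% for Sin3a-line-only regions (21 of 148) and 14.8% for the mirror class. On chromosome 6 the mirror class reached 22.9% and the Sin3a-line-only regions 10.2%. Of its 176 mirror regions, 89 lay at 120 to 130 Mb, so the value does not describe the chromosome evenly. On chromosomes 5 and 10 together 241 Sin3a-line-only regions stood beside 127 of the mirror class, and on all others 1073 beside 1542.

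Sin3a at sites shared by all 4 lists moved with this spread. The median log2 ratio of Sin3a fold, Nanog + Sin3a line over Sin3a line, at regions of all 4 lists was -0.14 on chromosome 10 and -0.11 on chromosome 5, against 0.12 on chromosome 15. Over the 20 chromosomes it ran against the share of Sin3a-line-only regions with a Spearman rho of -0.76, and of -0.67 over 18 chromosomes without 5 and 10. The ratio of FLAG fold between the lines at the same regions had a rho of -0.22 with that share, and its medians on chromosomes 5 and 10 were -0.22 and -0.21 beside -0.20 on chromosome 15. These correlations describe 20 points from the same libraries, and the first uses the contrast of the rule. Copy number of the chromosomes in the lines was not measured here, and its part in the result was not tested.

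**Figure D5:**
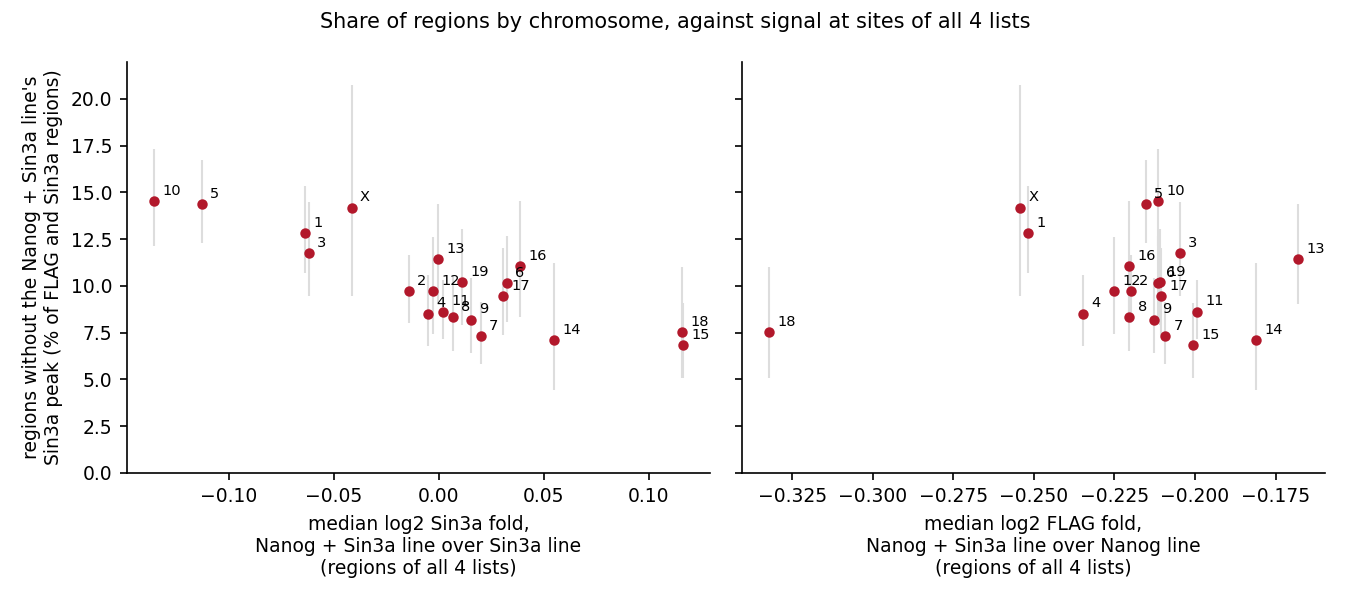
Share of Sin3a-line-only regions per chromosome (y axis, percent of regions with FLAG in both lines and a Sin3a peak in the Sin3a line, with 95% Wilson intervals) against the median log2 ratio between lines at regions of all 4 lists (x axis), for Sin3a on the left and FLAG on the right. Chromosomes 10 and 5 stand at the upper left of the Sin3a panel, at 14.5% and 14.4%, and chromosomes 15 and 18 at the lower right, whereas no such order is seen for FLAG.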

How the data were processed

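ChIP-seq was run on 10 samples, and 4 groups of 2 replicates each have 1 deposited peak list. Per the submitters' processing notes, Bowtie 1.0.0, SAMtools 0.1.19 and FastQC 0.10.1 were used and the build was mm9. The peak caller, its threshold and how replicates were joined are not given in the sources used. The deposited fold enrichment is the authors' ratio at the summit, the deposited −log10 p and −log10 q are theirs too, and the deposited score was not used. The IgG and the input sample were not analysed here. The gene and promoter tables at hand are of GRCm38, so no gene names or sequences were attached.

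Peaks sharing 1 base were merged. Of several peaks of a list in a region, the one with the highest −log10 q was used. Scaled pileup and whole fragments (within 0.01 of a whole number) were solved from fold, with 1 added to pileup and background, and a Poisson −log10 p, and had a single solution for 98.4% or more of the peaks in every list. Shares carry Wilson, differences Newcombe, medians order-statistic and fragments exact Poisson intervals.

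Named regions were the 6 with the highest Sin3a −log10 q, the 4 with the highest mean FLAG −log10 q, the 3 highest and 3 lowest FLAG ratios (1 FLAG peak per list, −log10 q of at least 10 in either), the 3 farthest from Sin3a peaks of the Nanog + Sin3a line (Sin3a −log10 q of at least 10), and the 2 nearest inside and outside the rule. Members, classes and tests were chosen with earlier results of these data known. The split by width, the band of Sin3a strength, the Sin3a and FLAG ratios by chromosome, the 10 Mb windows and leaving out chromosomes 5 and 10 were added after the data were seen. The planned count of genes near the regions was not run, for want of an mm9 annotation.

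The code was tested on simulated data and against bedtools 2.31.1. Matplotlib 3.10.9, SciPy 1.17.1, pandas 2.3.3 and NumPy 2.4.6 were run under Python 3.11.15.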

Additional observations from a re-analysis of the deposited data

How the results depend on the processing

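No paired analysis was possible because replicates of a group share 1 list, and no replicate could be left out. Depth limits the description to summits that were called. With a −log10 q of at least 10 asked of every peak in all 4 lists, 733 regions met the rule. Most of these are not among the 1314, of which only 96 had a Sin3a −log10 q of 10 or more. At this setting a weaker Sin3a peak of the Nanog + Sin3a line counts as none. With the minimum set only where a peak is required, 536 regions remained at 5 and 51 at 10. Under the remaining alternatives the number lay between 1073 and 1566. The mirror class numbered 1107 and 546 for minima of 5 and 10 in all lists, below the 1168 and 733 regions that met the other rule there, whereas with every peak it was the larger. Its share of 12.4% was 10.8% and 9.83% there, and 11.02% with peaks within 1 kb merged.

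Shares without a counterpart with FLAG in both lines (10.0%) were 11.3% and 12.8% for minima of 5 and 10, 9.23% with peaks within 1 kb merged and 9.41% without chromosomes 5 and 10. Without FLAG (49.8%) they were 45.0%, 34.2%, 56.7% with peaks within 1 kb merged and 53.1% with 50% of the shorter peak, and the differences (-39.8 points) were -33.7, -21.5, -47.5 and -42.9. With peaks of a −log10 q of 10 or more, the FLAG ratio had a median log2 of -0.19, and 0.955% of regions were higher and 7.37% lower by 1.5 times, against 1.55% and 6.68% from scaled pileup. With −log10 q in place of fold, FLAG strength against regions of all 4 lists was 0.698 and 0.658, and against Nanog regions without Sin3a 1.05 and 1.32, Nanog + Sin3a line first. No other alternative moved a value beyond its interval. The cause was not tested.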

Other observations

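Windows of 10 Mb with at least 20 regions of FLAG in both lines and Sin3a in the Sin3a line numbered 191, and 16 of them held 20% or more Sin3a-line-only regions. These windows were looked at after the data were seen. The highest shares were on chromosome 6 at 30 to 40 Mb (13 of 49, with 0 regions of the mirror class) and on chromosome 5 at 100 to 110 Mb (18 of 68). On chromosome 1 from 150 Mb to the end, 52 Sin3a-line-only regions stood beside 16 of the mirror class, and Sin3a at sites of all 4 lists had a median log2 ratio of -0.15 between the lines there, with -0.33 for FLAG. On chromosome 6 at 120 to 130 Mb the numbers were 5 and 89, with a median log2 ratio of 0.26 for Sin3a and -0.20 for FLAG. On the same chromosome at 50 to 60 Mb they were 0 and 19, with 0.27 for Sin3a and 0.37 for FLAG, so the FLAG ratio was high in that window too.

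Spacing among the Sin3a-line-only regions was counted without a comparison to an even spread or to another class. Whether they stand together more or less often than such a spread would give was not tested. Another such region lay within 10 kb of 131 of them (9.97%) and within 50 kb of 343 (26.1%), at a median gap of 217.2 kb. A region of all 4 lists lay within 10 kb of 506 (38.5%, 35.9 to 41.2%), against 25.9% of Nanog regions without Sin3a and 44.2% of the mirror class.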
